A study of Rattus norvegicus with 6 samples.

Results

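The genes described here encode the natriuretic peptides Nppa, Nppb and Nppc, their receptors Npr1, Npr2 and Npr3, and Corin, a protease that activates a natriuretic peptide. The members were the probes whose gene symbol on the array was one of these 7 names, and each gene was found with 1 probe, so that 7 of 30367 probes belong to them. Of the 7 probes, 6 were among the 19299 that were tested, because they were well above background on every array of 1 group or of both. Gene expression had been measured in heart primordia of Wister rat embryos (the strain as labelled) on embryonic day 10, in a pre-heartbeat group and a post-heartbeat group of 3 biological replicates each, with 1 single-color array for each sample. The labels name no treatment and no genetic change in either group. The groups had been separated by the shape of the primordium and the number of somites, which overlapped between them, and not by the beating of each embryo. The primordium was isolated as a whole, without separation of the first and the second heart field, and whether a sample held 1 embryo or several is not given in the sources used here.

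Natriuretic peptides are hormones that are cut out of longer precursors. Atrial natriuretic peptide (Nppa) and B-type natriuretic peptide (Nppb) are made by cardiomyocytes and are known in the embryo as markers of the working myocardium of the forming chambers, whereas C-type natriuretic peptide (Nppc) is made largely by endothelial cells, cartilage and nervous tissue. Npr1 binds the peptides of Nppa and Nppb, and Npr2 binds that of Nppc. Both are guanylyl cyclases that make cyclic GMP inside the cell, while Npr3 takes the peptides up for degradation.

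The genes of both cardiac peptides are neighbors. In RefSeq on the GRCr8 assembly, Nppb lies on chromosome 5 from 163699955 to 163701314 and Nppa from 163712184 to 163713493, with 10869 bases and 0 complete annotated genes between them. Their probes, printed 5′ to 3′ because the main result rests on these sequences, begin at base 118 of the Nppa transcript and base 309 of the Nppb transcript given with the array.
Nppa probe: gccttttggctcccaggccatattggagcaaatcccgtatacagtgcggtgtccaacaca
Nppb probe: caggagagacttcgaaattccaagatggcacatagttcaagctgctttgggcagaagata

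The bases upstream of both genes are shown because the signals of both genes were higher in the same arrays. All 7 members were matched in the RefSeq gene table, and 6 in its table of start regions, which did not list Npr2. The sequence before Nppa is chr5:163711934-163712183 and that before Nppb is chr5:163699758-163699954, both on the plus strand of GRCr8. The start site given for Nppb was 163700008, which is 53 bases inside the annotated gene, and the printed sequence ends before the gene. Capitals mark matches, on either strand, to GATAA (bound by GATA factors), AAGTG (the core of the site of Nkx2-5), TATAAA (the TATA box) or GGAATG (the M-CAT site of TEAD factors).
Nppa upstream: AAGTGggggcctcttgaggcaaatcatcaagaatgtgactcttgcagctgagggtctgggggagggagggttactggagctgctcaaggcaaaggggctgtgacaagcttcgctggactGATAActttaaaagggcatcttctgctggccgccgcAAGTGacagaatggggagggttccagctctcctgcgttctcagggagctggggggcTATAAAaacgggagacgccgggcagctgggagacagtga
Nppb upstream: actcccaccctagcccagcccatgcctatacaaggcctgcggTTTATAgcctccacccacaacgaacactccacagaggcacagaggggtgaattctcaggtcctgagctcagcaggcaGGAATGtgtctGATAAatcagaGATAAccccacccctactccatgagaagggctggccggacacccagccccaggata

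In the 250 bases before the start site, Nppa had 1 GATA match, with its first base at -131 from the start, 2 Nkx2-5 matches at -250 and -95, and 1 TATA box at -39. Nppb had 3 GATA matches at -120, -109 and -57, the last of which runs beyond the printed sequence. It also had 1 M-CAT match at -131. Its only match to TATAAA was on the minus strand, from -208 to -203, far from the start site, and is not called a TATA box here. Among 33469 start regions of the same length, a match was found in 23.5% for GATA, 40.6% for Nkx2-5, 12.9% for TATA and 12.1% for M-CAT, and 0.762% had at least 3 GATA matches. The T-box site (GTGTGA, in 11.6% of all) and the CArG box (bound by SRF, in 1.5%) were searched as well and had no match before any of the 6 genes. Nppc had a TATA box at -48, and Npr1, Npr3 and Corin had no match to any of these motifs. A match is a description of the letters and not a site at which binding was measured.

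The 6 arrays lay on 2 slides, slide 1 holding post-heartbeat replicates 1 and 2 and pre-heartbeat replicate 1, and slide 2 the other arrays. In a principal component analysis of the tested probes, the leading component followed the slide (60.3% of the variance) and the next followed the groups (16.6%), so that values from a fit with the slide as a blocking term (a slide block) and within slides are given beside the results they touch. The signal is given as log2 of the intensity over the array's 75th percentile, which was between 1145.76 and 1701.98 intensity units, with 0 saturated spots. The difference between the groups had a median of -0.033 on the log2 scale over all tested probes, with 8619 probes higher and 10680 lower in the post-heartbeat group. Fewer cells of a type and less RNA per cell cannot be told apart in such tissue samples. Contractile genes of cardiomyocytes such as Actc1, Tnnt2 and Myl7 were well above background on every array of both groups.

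Nppa, the precursor of atrial natriuretic peptide, was 3.58 fold higher after heartbeat initiation, and Nppb, the precursor of B-type natriuretic peptide, was 2.65 fold higher. Corin, which cuts the Nppa precursor, was 2.20 fold higher but did not pass the test over all probes, and the 3 receptor genes did not pass it either. Nppa and Nppb were thus the 2 members called higher at a limma adjusted p under 0.05, a call made for 0.119% of all tested probes. No member was called lower, as 0.0207% of tested probes were, and 0 of the 6 were lower at an unadjusted limma p under 0.05, where 3.1% of tested probes were. In either direction, 7.01% of tested probes had an unadjusted limma p under 0.05. In the fit with a slide block, 3 of the 6 tested members were called higher (Nppa, Nppb and Corin), beside 1.16% of tested probes. The same 3 were in the selection of the study's methods, which requires a change of at least 1.5 fold and p under 0.05 by the Tukey HSD test before any adjustment, and which held 1.89% of tested probes as higher. For these 3 genes every post-heartbeat array was above every pre-heartbeat array, as for 5.38% of tested probes.

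**Figure D1:**
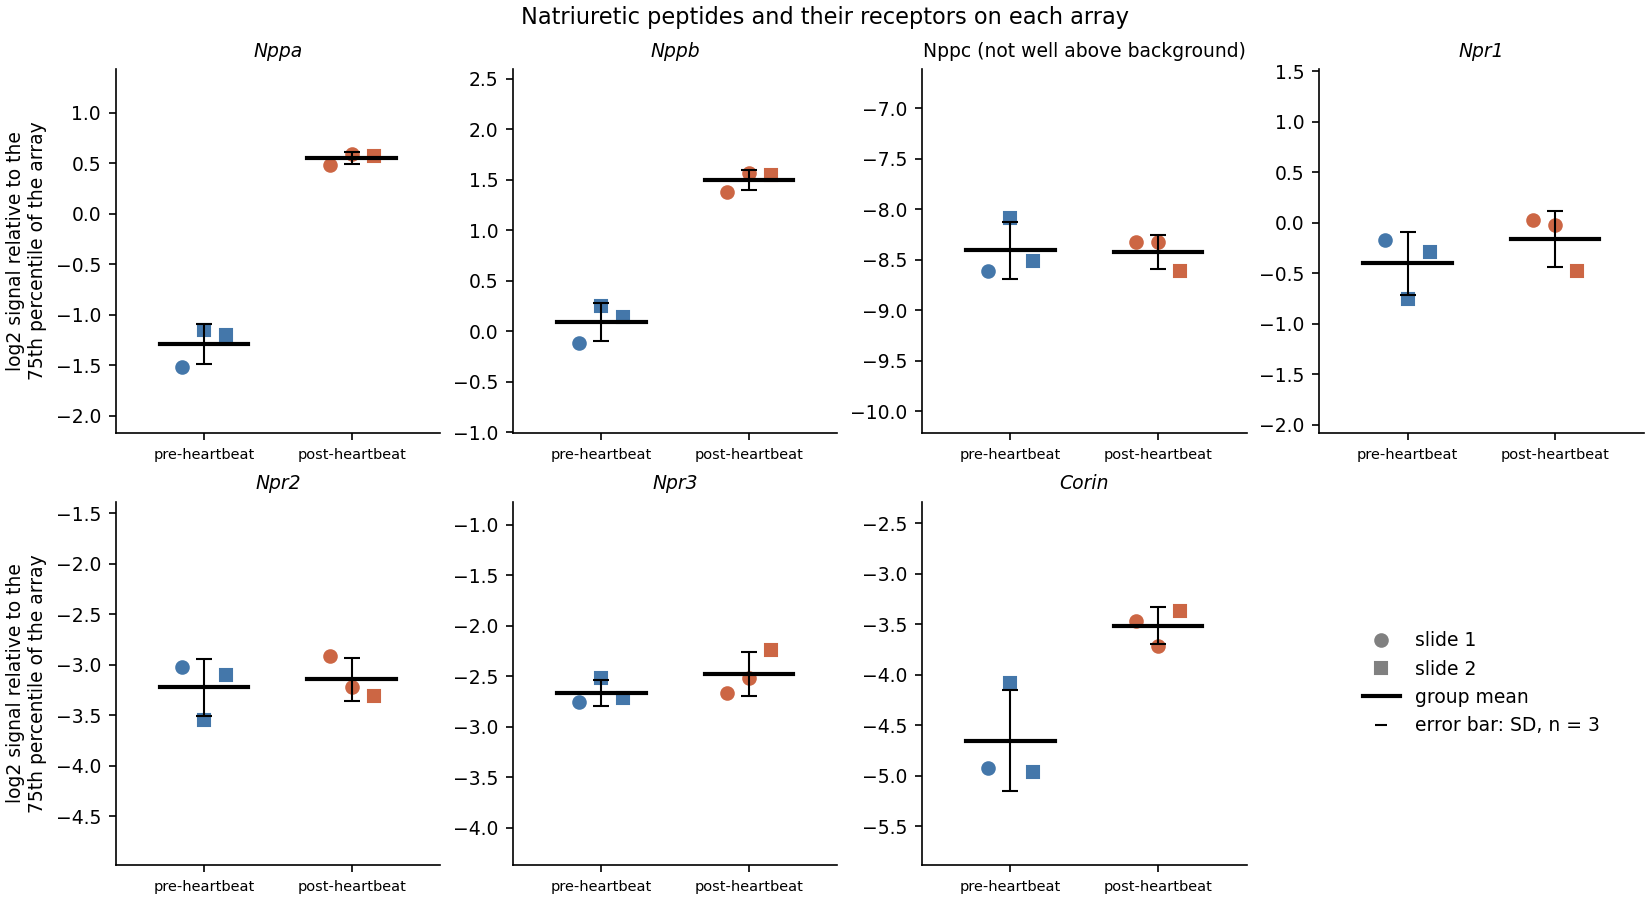
Signal of the 7 members on each array, as log2 relative to the array's 75th percentile, with circles for slide 1, squares for slide 2, thick lines for group means and error bars for SD (n = 3). Every panel spans the same log2 range. Nppa, Nppb and Corin were higher on all 3 post-heartbeat arrays than on all 3 pre-heartbeat arrays, the groups of Npr1, Npr2 and Npr3 overlapped, and Nppc was not well above background.

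The probe of Nppa, on the plus strand of chromosome 5 from 165074636 to 165074695 in the rn4 genome, was spotted 10 times on each array. Its signal was -1.51, -1.16 and -1.20 on pre-heartbeat replicates 1, 2 and 3, and 0.48, 0.60 and 0.57 on post-heartbeat replicates 1, 2 and 3. Nppa was thus below the 75th percentile of the array before heartbeat initiation and above it afterward, and the groups lay far apart. The lowest signal was that of pre-heartbeat replicate 1, the only pre-heartbeat array on slide 1. The group means were -1.29 ± 0.19 (SD, n = 3) and 0.55 ± 0.060 (SD, n = 3), and the difference was 1.84 on the log2 scale (SE 0.15, 95% confidence interval 1.48 to 2.20, limma adjusted p = 0.0199). By the exact permutation test, two-sided over the 10 splits of the arrays, p was 0.1, the smallest value that 3 arrays against 3 allow. The difference was 2.05 within slide 1 and 1.75 within slide 2, and 1.90 (SE 0.14, limma adjusted p = 0.0033) in the fit with a slide block. It ranked 18 from the top among the differences of all tested probes. The spots of the probe within an array had an SD between 0.030 and 0.077 on the log2 scale, far smaller than the difference between the groups. When any single array was left out, the difference of Nppa stayed between 1.73 and 1.91, but its limma adjusted p was between 0.0631 and 0.201, so that the call rested on all 6 arrays.

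The probe of Nppb lies on the plus strand of chromosome 5 from 165062879 to 165062938 (rn4) and was also spotted 10 times. Its signal was -0.12, 0.26 and 0.14 on pre-heartbeat replicates 1, 2 and 3, and 1.38, 1.56 and 1.55 on post-heartbeat replicates 1, 2 and 3. As for Nppa, the groups did not overlap and pre-heartbeat replicate 1 was the lowest array. The means were 0.094 ± 0.19 (SD, n = 3) and 1.498 ± 0.10 (SD, n = 3), a difference of 1.40 on the log2 scale (SE 0.15, 95% confidence interval 1.04 to 1.77, limma adjusted p = 0.0423). It was 1.59 within slide 1, 1.35 within slide 2 and 1.47 (SE 0.14, limma adjusted p = 0.00669) in the fit with a slide block. As a single value, Nppb had a two-sided exact permutation p of 0.1, again the smallest possible. The call of Nppb was also lost when any single array was left out (difference 1.30 to 1.49, limma adjusted p = 0.0954 to 0.281), and with quantile normalization (limma adjusted p = 0.0517).

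Both cardiac peptide genes were higher after heartbeat initiation, and the difference of Nppa was the larger in these arrays. Within an array, the signal of Nppa less that of Nppb was -1.40, -1.41 and -1.34 on pre-heartbeat replicates 1, 2 and 3, and -0.90, -0.97 and -0.97 on post-heartbeat replicates 1, 2 and 3. These differences are not a ratio of the 2 transcripts, because the probes differ, but their change between the groups compares how far each gene moved. The pre-heartbeat mean was -1.38 ± 0.036 (SD, n = 3) and the post-heartbeat mean -0.95 ± 0.041 (SD, n = 3), a difference of 0.44 (0.43 with a slide block, chosen after the data were seen), and no post-heartbeat array overlapped a pre-heartbeat array (two-sided exact permutation p = 0.1, the smallest possible).

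Nppc, the precursor of C-type natriuretic peptide, was not well above background on any of the 6 arrays (probe on the minus strand, chromosome 9 from 85434422 to 85434481, rn4). Its intensity was between 3.95 and 4.40 units, and its log2 signal between -8.61 and -8.09, whereas the dimmest spot that was well above background was at -6.37 to -5.81 depending on the array. No level and no difference between the groups can be given for Nppc.

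Corin is a membrane-bound serine protease of cardiomyocytes that converts the Nppa precursor to the active peptide. Its probe, on the plus strand of chromosome 14 from 38339574 to 38339633 (rn4), was dim, with intensities between 47.7 and 165 units, and was spotted 2 times. The signal was -4.93, -4.08 and -4.96 on pre-heartbeat replicates 1, 2 and 3, and -3.46, -3.72 and -3.36 on post-heartbeat replicates 1, 2 and 3. The groups did not overlap, with pre-heartbeat replicate 2 the nearest to the post-heartbeat arrays. The difference was 1.14 on the log2 scale (SE 0.26, 95% confidence interval 0.52 to 1.76) and did not pass over all probes (limma adjusted p = 0.224, two-sided exact permutation p = 0.1). It passed with a slide block (1.25, SE 0.24, limma adjusted p = 0.0488), with 1.34 within slide 1 and 1.15 within slide 2. With normexp background correction and an offset of 50, the difference was 0.56 (limma adjusted p = 0.845).

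Of 8 other genes listed for the processing or clearance of natriuretic peptides, 7 were tested, 3 of them higher and 4 lower. Their median log2 difference was -0.074 against -0.033 over all tested probes. Ostn (osteocrin, a ligand of Npr3) was not well above background on any array. Dpp4, a peptidase that trims B-type natriuretic peptide among other substrates, was the only one of the 7 that passed. Its signal was lower on every post-heartbeat array than on every pre-heartbeat array, with group means of -1.21 before and -2.43 after heartbeat initiation, a difference of -1.21 (limma adjusted p = 0.0456, 0.011 with a slide block). A second, dimmer probe of Dpp4 had a difference of -0.91 that did not pass (limma adjusted p = 0.444). Furin, which cuts the Nppb precursor, had a difference of 0.43 (limma adjusted p = 0.866, and 0.22 with a slide block), Mme (neprilysin, which degrades the peptides) -0.38 (0.786) and Ide (insulin-degrading enzyme) -0.074 (0.896, and -0.010 with a slide block), none of them separated from the spread between arrays.

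Unlike Nppa and Nppb, the receptors overlapped between the groups. Npr1, the receptor of the Nppa and Nppb peptides, has its probe on the minus strand, chromosome 2 from 182724916 to 182724975 (rn4), with 10 spots. The signal of Npr1 was -0.16, -0.75 and -0.28 on pre-heartbeat replicates 1, 2 and 3, and 0.030, -0.024 and -0.48 on post-heartbeat replicates 1, 2 and 3. All 3 arrays of slide 1 were above all 3 arrays of slide 2, whatever their group. The difference between the groups was 0.24 (SE 0.22, 95% confidence interval -0.28 to 0.76, limma adjusted p = 0.866), and 0.10 with a slide block, while the difference of slide 2 from slide 1 was -0.42 (limma adjusted p = 0.12). A rise of Npr1 as large as that of Nppb was outside the confidence interval, which included 0.

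Npr2, the receptor of the Nppc peptide, was measured by a probe with 10 spots on the plus strand of chromosome 5 from 60127743 to 60127802 (rn4). Its signal was -3.02, -3.55 and -3.10 on pre-heartbeat replicates 1, 2 and 3, and -2.91, -3.22 and -3.31 on post-heartbeat replicates 1, 2 and 3. The groups overlapped almost fully, with a difference of 0.076 (SE 0.20, 95% confidence interval -0.39 to 0.54, limma adjusted p = 0.917). The sign was not settled, since the difference was -0.014 with a slide block.

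Npr3, the clearance receptor, had 2 spots on the minus strand, chromosome 2 from 61278264 to 61278323 (rn4). Its signal was -2.76, -2.52 and -2.71 on pre-heartbeat replicates 1, 2 and 3, and -2.67, -2.52 and -2.24 on post-heartbeat replicates 1, 2 and 3. The highest array was post-heartbeat replicate 3 and the others overlapped. The difference was 0.19 (SE 0.16, 95% confidence interval -0.20 to 0.58, limma adjusted p = 0.866), and 0.27 (0.66) with a slide block. The intervals of all 3 receptors included 0, which does not show that the receptors were unchanged.

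**Figure D2:**
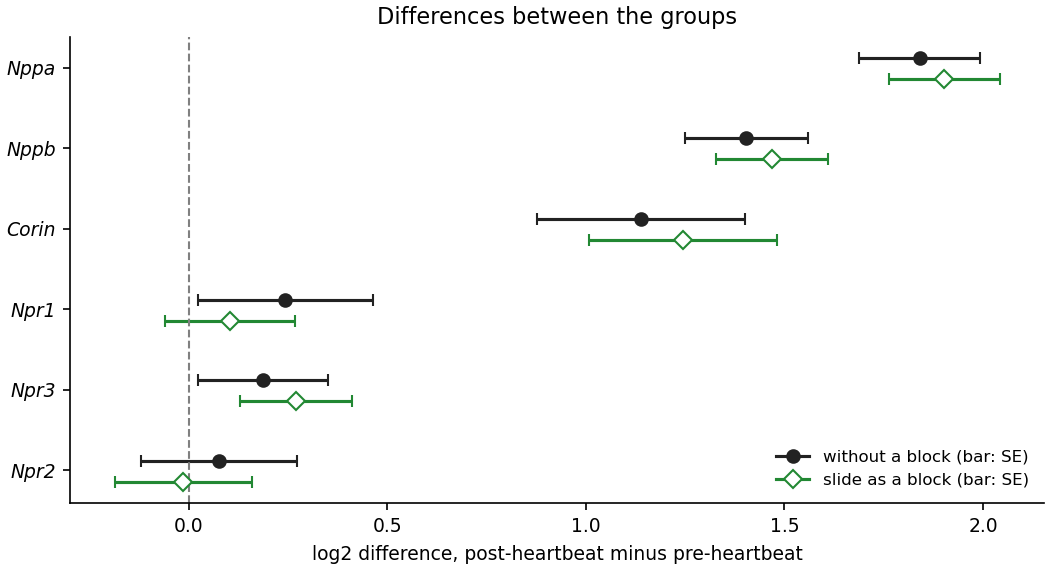
Difference of the 6 tested members between the groups, post-heartbeat minus pre-heartbeat on the log2 scale, without a block (filled circles) and with a slide block (open diamonds), with bars for SE. Nppa, Nppb and Corin lay at 1.84, 1.40 and 1.14 without a block, and the receptors lay between 0.076 and 0.24.

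Cyclic GMP is the messenger made by Npr1 and Npr2. Of 27 listed genes that make, use or break down cyclic GMP, 15 were tested, and Gucy2d and Gucy2e shared a probe that was counted once. The 15 genes were higher in 10 cases and lower in 5, with a median log2 difference of 0.18, and 7 of the 27 were not well above background on any array. By limma, 0 genes passed over all probes and 1 had an unadjusted p under 0.05, beside 7.01% of tested probes. This was Irag1 (a target of the cyclic GMP-dependent kinase at the endoplasmic reticulum, named Mrvi1 on the array), which was also in the methods' selection, with a difference of 0.81 (limma adjusted p = 0.271, 0.047 with a slide block) and 0.79 by a second, dimmer probe (0.386). Prkg1, the cyclic GMP-dependent kinase itself, passed with a slide block (0.73, limma adjusted p = 0.047), where its difference without a block was 0.40 (0.866). Of the soluble guanylyl cyclase, which answers nitric oxide and not the peptides, Gucy1a1 had a difference of 0.18 and Gucy1b1 of 0.51, and Pde5a, a phosphodiesterase of cyclic GMP, had -0.25 (-0.0014 with a slide block), each at a limma adjusted p of 0.757 or more without the block.

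Of 24 listed transcriptional regulators of Nppa and Nppb, 23 were tested, 16 higher and 7 lower, with a median log2 difference of 0.19. By limma, 0 of the 23 passed over all probes, and 4 had an unadjusted p under 0.05. The cardiac activators had differences of 0.62 for Gata4 (limma adjusted p = 0.813), 0.67 for Nkx2-5 (0.866) and 0.45 for Tbx5 (0.633). The groups of Gata4 and Nkx2-5 overlapped and those of Tbx5 did not. With a slide block they were 0.42, 0.35 and 0.46, and that of Nkx2-5 was 0.69 within slide 1 and -0.00055 within slide 2. Tbx20 had a difference of -0.45 (limma adjusted p = 0.866) that was -0.030 with a slide block, 0.12 within slide 1 and -0.18 within slide 2, so that its sign was not settled, and Tbx2, a repressor of chamber genes outside the chambers, 1.46 (0.569), both with overlapping groups. Irx4, a regulator of the ventricles, was the only one in the methods' selection, with a difference of 1.29 (limma adjusted p = 0.109, 0.027 with a slide block).

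Most listed genes of chamber myocardium had higher signals in the post-heartbeat group, as Nppa and Nppb did. Of 14 listed genes, 13 were tested and 12 were higher after heartbeat initiation, with a median log2 difference of 0.80, and 3 passed over all probes by limma. These were Myl2 (the ventricular regulatory myosin light chain, 3.46), Pln (phospholamban, 2.39) and Tnni3 (cardiac troponin I, 1.39), all with groups that did not overlap. The methods' selection held 9 of the 13 as higher, and 8 were called higher with a slide block. Of the 9 in the selection, those without a call in the fit without a block were Myl3 (1.22), Myh6 (0.92), Ankrd1 (0.91), Csrp3 (0.80), Smpx (0.75) and Kcne1 (0.69). Kcne1 was not called with a slide block either (limma adjusted p = 0.222). Gja5, a connexin of chamber myocardium, had a difference of 0.57 (limma adjusted p = 0.528). Gja1, another connexin, went the other way, with -0.81 (limma adjusted p = 0.0999, 0.0284 with a slide block).

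Several lists of cell type markers also leaned in 1 direction between the groups. In the fit without a block, Otx2 of neural and head ectoderm was the only such marker that passed limma over all probes. Of 12 markers of cardiomyocytes, all tested, 11 were higher after heartbeat initiation, with a median log2 difference of 0.62 (0.82 with a slide block). Their summed signal, in multiples of the 75th percentile of the array, ran from 358 to 635 on the pre-heartbeat arrays and from 658 to 780 on the post-heartbeat ones. Most of this sum came from Actc1 (0.41, limma adjusted p = 0.866), Tnnt2 (0.28, 0.866) and Myl7 (0.61, 0.692). By limma, 0 of the 12 passed over all probes, 7 had p under 0.05 before adjustment and 5 passed with a slide block. The largest differences among them were those of Myh7 (1.11), Mybpc3 (1.03) and Myl4 (0.996), and Ryr2 had -0.026. Within an array, the signal of Nppa less the mean of the 12 markers was -4.55, -4.88 and -4.78 on pre-heartbeat replicates 1, 2 and 3, and -3.49, -3.49 and -3.65 on post-heartbeat replicates 1, 2 and 3. Nppa was thus higher in the post-heartbeat group also relative to these markers, by 1.19 (two-sided exact permutation p = 0.1, the smallest possible) and by 1.12 with a slide block, which was chosen after the data were seen.

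**Figure D3:**
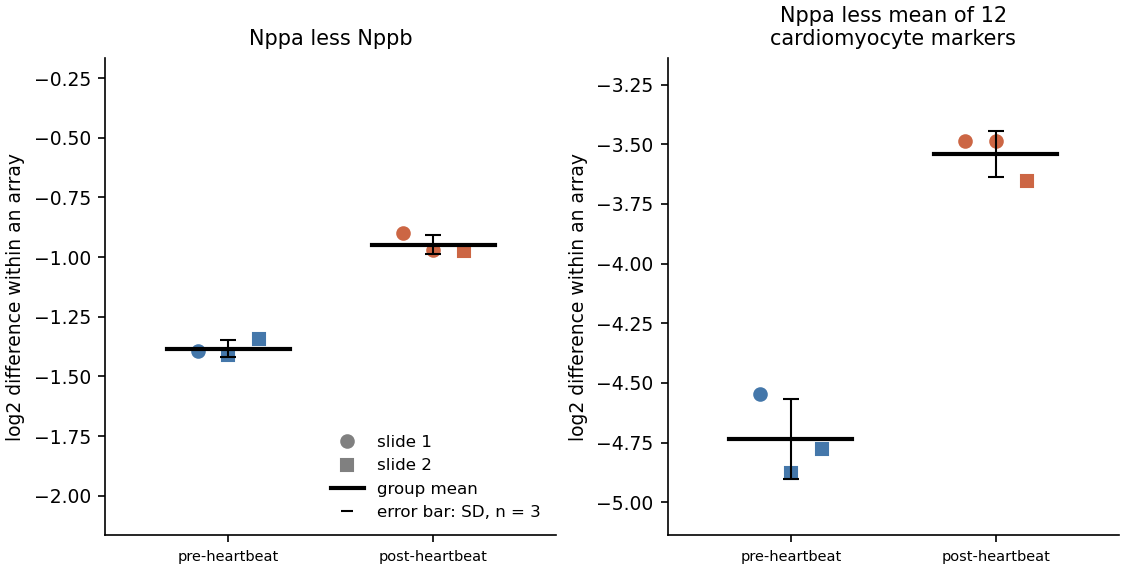
Signal of Nppa on each array less that of Nppb (left) and less the mean of 12 cardiomyocyte markers (right), on the log2 scale, with circles for slide 1, squares for slide 2, thick lines for group means and error bars for SD (n = 3). The post-heartbeat arrays were above the pre-heartbeat arrays in both panels, by 0.44 and by 1.19 on average.

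The summed signal of 10 tested endothelial and endocardial markers ran from 20.7 to 24.5 before heartbeat initiation and from 19.9 to 21.9 after it. Of these markers 3 were higher and 7 lower, and Erg (-0.60) was in the methods' selection as lower. Most of this sum came from Kdr (-0.55) and Plvap (0.66). For 8 tested endoderm markers the summed signal was between 47.7 and 52.2 before and between 32.3 and 40.5 after, with 7 lower and 0 called. Most of this sum came from 1 gene, Ttr (-0.58, limma adjusted p = 0.388). For the 3 tested markers of neural and head ectoderm the summed signal was between 6.72 and 7.55 before and between 2.56 and 3.05 after, and most of it came from Otx2. Otx2 was called lower (-1.56, limma adjusted p = 0.0199), Hesx1 was at -1.56 (0.0829), and Pax6, Six3, Lhx5 and Zic1 were not tested. The 4 tested markers of paraxial mesoderm summed to between 21.7 and 24.1 before and between 25.1 and 26.6 after, mostly from Tcf15 (0.19) and Pax3 (0.12). All 4 were higher in the fit without a block, 0 of them at an unadjusted limma p under 0.05. With a slide block, Foxc2 went from 0.29 to -0.23. The 7 tested erythroid markers summed to between 2.29 and 4.40 before and between 3.69 and 6.23 after, with 5 higher and 2 lower. Of these, Hbb (1.22) and Epor (1.26) were in the methods' selection, while Alas2 (-0.61) and Klf1 (-0.25) went the other way. With a slide block, Epor was called (limma adjusted p = 0.0397) and Hbb was not (0.159). Hba-a2 had 0.28 by the probe used and -1.67 by a second, dimmer probe, neither of which passed without a block (limma adjusted p = 0.866 and 0.361). Gata1 was not well above background on any array. The part of these tissues in the differences of Nppa, Nppb and Corin was not tested.

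**Figure D4:**
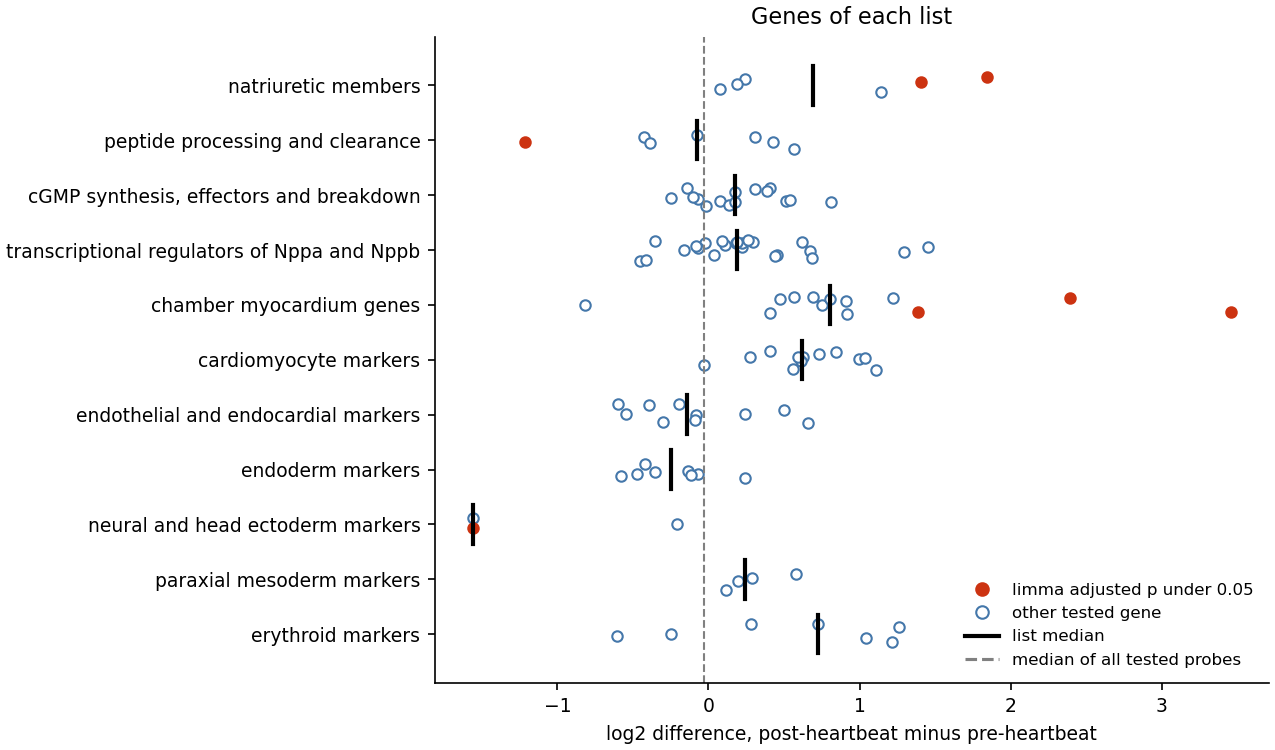
Difference of each tested gene between the groups, post-heartbeat minus pre-heartbeat on the log2 scale, in the lists named on the vertical axis, with filled points for a limma adjusted p under 0.05, black bars for list medians and a dashed line for the median of all tested probes (-0.033). The chamber myocardium genes had a median of 0.80 and the cardiomyocyte markers of 0.62, whereas the cyclic GMP genes and the regulators were at 0.18 and 0.19.

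The genes whose signal was most like that of each member over the 6 arrays were sought among 3646 probes with a symbol, a signal well above background on all arrays and an SD of at least 0.3. For Nppa, the highest Pearson correlations were those of Trim54 (a muscle ring-finger protein of the sarcomere, r = 0.999), Nppb (0.998), Aqp1 (a water channel, 0.997), Hsbp1l1 (0.997) and Abcg1 (a sterol transporter, 0.996). For Nppb they were those of Aqp1 (0.998), Nppa (0.998) and Dbh (dopamine beta-hydroxylase, 0.997), so that each cardiac peptide gene was the second most like the other. Trim54 had a difference of 1.90 between the groups (limma adjusted p = 0.0179), Aqp1 1.26 (0.0423) and Dbh 1.46 (0.0502). For Corin the most alike were Coro6 (0.992), Cd36l1 (0.978) and Hbb (0.973). This Hbb value is from a second, dimmer probe, with a difference of 1.61 (limma adjusted p = 0.237), and not from the probe of the erythroid markers above. Npr1 was followed by Pcgf2 (0.998), Fam110d (0.997) and Rela (0.997), Npr2 by Myrf (0.994), Msl1 (0.991) and Igf1r (0.989), and Npr3 by Ghr (0.987), Inpp4b (0.980) and Zbed4 (0.967). These 6 points share their groups and slides, and for the peptide genes the correlation is mostly the distance between the groups, so it is a description of likeness only.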

How the data were processed

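The members, the gene lists and the tests were chosen with earlier results of these data known. The authors quantified single-color Agilent rat arrays with Feature Extraction 10.7.3.1 and deposited the processed signal of each spot, an intensity after background subtraction that was not normalized between arrays. A second table that the authors deposited holds linear ratios, for which each array had been shifted to its 75th percentile and each probe divided by its own baseline, and it was used here as an alternative only. Here, control spots and spots marked as outliers were left out of the averages, log2 intensities were reduced by the array's 75th percentile, taken over the 58717 spots other than controls, and spots of a probe were averaged. Probes well above background on every array of 1 group or of both were tested (19299, or 63.6%). For other genes with several probes, the probe with the highest mean signal stood for the gene.

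Groups were compared with limma 3.58.1 in R 4.3.3 with Benjamini-Hochberg adjustment over all tested probes and a threshold of 0.05. Lists were described by counts and medians, and 1 gene of the chamber myocardium list is not reported here and was left out of its counts. A self-test on simulated data was run. The genes named were the members, list genes that passed limma with or without the slide as a block or were in the methods' selection, the regulators Gata4, Nkx2-5, Tbx5 and Tbx20, and the most alike genes (5 for Nppa, 3 for other members). Some genes outside this rule (Furin, Mme, Ide, Gucy1a1, Gucy1b1, Pde5a, Tbx2, Gja5, Ryr2, Kdr, Plvap, Ttr, Alas2, Klf1 and markers that were not detected) were named after their values were seen. So were Actc1, Tnnt2, Myl7, Tcf15, Pax3, Foxc2 and Hba-a2. Of the genes that meet the rule, the less informative markers were given by counts. Probe positions are from the array annotation (rn4) and sequences before start sites from RefSeq (GRCr8). Precision is limited by the number of arrays. The 3 samples per group are described as biological replicates. Alternatives were a replicate block, a slide block, normexp with an offset of 50, quantile normalization, other percentiles and filters, the authors' ratios, an intensity trend, the Tukey HSD test with adjustment and leaving out each array.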

Additional observations from a re-analysis of the deposited data

How the results depend on the processing

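The differences of Nppa (1.70 to 1.91 over 18 alternatives), Nppb (1.30 to 1.49), Corin (0.56 to 1.43), Npr1 (0.067 to 0.40) and Npr3 (0.070 to 0.28) kept their direction in every alternative, and so did Nppa less Nppb (0.35 to 0.46) and Nppa less the cardiomyocyte markers (1.07 to 1.29) in 13. The calls did not. Without a filter, Nppa (1.84, limma adjusted p = 0.0868) and Nppb (1.40, 0.123) were no longer called, and with the Tukey HSD test adjusted by Benjamini-Hochberg neither was called (1.84 and 1.40, adjusted p = 0.185 and 0.192). Nppb was not called with quantile normalization (1.41, limma adjusted p = 0.0517) or with the authors' ratios (1.39, 0.0581). Leaving out 1 array at a time, the difference was 1.73 to 1.91 for Nppa and 1.30 to 1.49 for Nppb, and 0 members were called higher each time. Corin was called with the slide as a block (1.25). The difference of Npr2 reversed with the slide as a block (-0.014) and in leave-one-out fits, where it ranged from -0.084 without pre-heartbeat replicate 2 to 0.18. The cause of these changes was not tested.

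The number of members called higher was 1 with quantile normalization, 1 with the authors' ratios, 0 without a filter and 0 with the adjusted Tukey HSD test, and no alternative called a member lower. Over all probes, 23 were called higher and 4 lower. These counts became 223 and 89 with the slide as a block, and 38 and 7 with an intensity trend. Without a filter they were 1 and 0, and 43 probes were higher with normexp, 11 with quantile normalization and 10 with the authors' ratios. With the adjusted Tukey HSD test they were 0 and 0, where 1319 probes had an unadjusted p under 0.05, and in leave-one-out fits 0 to 1 and 0 to 1.

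Whether replicate numbers paired the samples cannot be told from these arrays. The correlation of same-numbered arrays was 0.65, -0.28 and 0.49, and not every array correlated best with the array of its own number. But every pair of a pre-heartbeat and a post-heartbeat array correlated positively on the same slide and negatively on different slides. These correlations thus followed the slide, and pairs within a group were not compared. With the replicate block, 95 probes were called higher and 49 lower, and the difference of Nppa was 1.84. Signal near background limits Corin and Nppc, and 3 arrays per group limit every test.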
